A study of Mus musculus with 18 samples.

Results

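Ribosome biogenesis factors, the proteins that make and assemble the ribosome's subunits, were followed in ileum cells of mice on chow or on a high-fat diet. The members were 60 genes, each found by its gene name among the non-control probes of the arrays and represented by its brightest probe. All 60 were on the array, which carries 37074 gene names in all. RNA came from 18 mice, 1 array per mouse. Floxed animals (Pgc1α fl/fl) made up 2 groups, 6 fed chow and 6 fed a high-fat diet (HFD, which the study calls a Western diet), and 6 iPgc1α-/- animals fed HFD formed the third. All mice had a C57BL6/J background, began the diet at 8 weeks of age, ate it for 8 weeks and were killed at zeitgeber time 3. Fat supplied 42% of the kcal of HFD, which also contained 0.2% cholesterol. Both floxed groups carry loxP sites in Pgc1α without Cre, and in iPgc1α-/- mice Cre under the Villin promoter deletes exons of Pgc1α in the intestinal epithelium. Cells were taken off the ileum by chelation, and a sample holds all the cells released along the crypt and villus. The labels and the study's methods describe the fasting state at death differently. The fourth combination, iPgc1α-/- with chow, is not analysed here.

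Ribosomes are built in the nucleolus. RNA polymerase I transcribes the ribosomal RNA precursor, small nucleolar ribonucleoproteins (snoRNPs) guide its methylation and pseudouridylation, and large sets of helicases, GTPases and scaffold proteins fold, cut and package it into the small (40S) and large (60S) subunits. These factors are made in step with growth, and in the intestine they are known to be most abundant in the dividing cells of the crypt. MYC is the best known activator of their genes.

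The stretch around the transcription start is given for the 5 members whose signal differed more than 1.5-fold between the diets, as the genes with the largest differences. Of the 60 members, 51 were in the RefSeq promoter table (GRCm38.p6), where a window runs from 250 bases before to 50 bases after the start. Each line gives the gene, the position and 110 bases, read 5′ to 3′ on the gene's own strand, of which 100 lie before the start and 10 after it. Capitals mark CCGGAAGT, a sequence bound by ETS factors (written ACTTCCGG where it lies on the other strand), and in Ftsj3 GCATGCGC, the core bound by NRF1.
Nhp2 (chr11:51619673-51619782, plus strand): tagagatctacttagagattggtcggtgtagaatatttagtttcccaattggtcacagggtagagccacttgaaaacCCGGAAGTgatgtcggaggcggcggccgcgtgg
Gar1 (chr3:129831387-129831496, minus strand): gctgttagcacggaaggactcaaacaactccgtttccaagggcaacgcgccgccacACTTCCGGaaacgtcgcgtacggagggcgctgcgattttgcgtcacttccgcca
Tsr1 (chr11:74897980-74898089, plus strand): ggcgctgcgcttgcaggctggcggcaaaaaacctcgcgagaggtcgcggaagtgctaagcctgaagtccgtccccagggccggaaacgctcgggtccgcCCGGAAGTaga
Ftsj3 (chr11:106256075-106256184, minus strand): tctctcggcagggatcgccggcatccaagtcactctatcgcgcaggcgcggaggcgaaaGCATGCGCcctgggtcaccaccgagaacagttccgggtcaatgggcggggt
Lyar (chr5:38220382-38220491, plus strand): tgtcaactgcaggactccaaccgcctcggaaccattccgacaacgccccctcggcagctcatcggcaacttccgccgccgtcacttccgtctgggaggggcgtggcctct
In Nhp2, Gar1 and Tsr1 the ETS letters lay close to the start, with their first base at -23, -44 and -1 from it, and none of the 3 sequences searched was found in the stretch of Lyar. Over whole windows and both strands, CCGGAAGT was found in 14 of the 51 members (27.5%), against 4.31% of the 27025 genes of the table and 7.67% of the 11866 that were also tested on the arrays. The E-box CACGTG, the sequence bound by MYC with MAX, was found in 9 of the 51 (17.6%), against 8.09% and 10.9%. GCATGCGC was found in 2 of the 51 (3.92%), against 3.05% and 5.12%. Of the 35 members of the table that fell on HFD 10 held the ETS letters (28.6%), 5 the E-box (14.3%) and 2 the NRF1 core (5.71%), and of the other 16 members 4, 4 and 0 did. These counts describe letters and carry no test.

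Expression was read from Cy3-labelled RNA copies bound to printed probes, and signals are given on a log2 scale after normalization, where a difference of 1 is a doubling. Levels are compared between samples for the same probe only. The share of spots well above background was between 56.3% and 62.3% per array. Every member passed the filter on dim probes, and 59 of the 60 were well above background on all 18 arrays, the exception being Utp15 with 16. The signal of Ppargc1a, the gene targeted in iPgc1α-/- mice, did not fall where the label says iPgc1α-/-, with 11.36 to 12.01 on its brighter probe against 11.26 to 11.44 in Pgc1α fl/fl mice on HFD (adjusted p = 0.569, limma). Which exon that probe lies in was not determined, so directions by genotype refer to the labels. Markers of villus enterocytes such as Vil1 and Fabp2 were bright on all arrays, with a mean log2 signal of the 13 markers between 14.7 and 15.4, and those of T cells were measured too.

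The ribosome biogenesis factors were lower on HFD as a group. In Pgc1α fl/fl mice 56 of the 60 members had a lower mean signal on HFD than on chow, 41 fell at an adjusted p of 0.05 or lower, 1 rose (Sdad1) and 18 did not pass the test (limma). Over all 21535 genes tested in the same way, 14.3% fell and 10.3% rose. The median log2 fold change of the members was -0.40, a change of -24.4% in signal, with a lowest value of -0.66 and a highest of 0.50, while the median over all genes tested was 0.0019. The differences were moderate in size: 5 members (Lyar, Nhp2, Tsr1, Ftsj3 and Gar1) fell by more than 1.5-fold, against 5.22% of all genes. In 6 members (Lyar, Nop58, Mrto4, Emg1, Heatr1 and Utp20) every HFD array lay below every chow array, against 5.31% of all genes. Taken 1 gene at a time, 46 of the 60 had an unadjusted p below 0.05 in a two-sided exact permutation test, against 35.2% of all genes, and 52 had one by limma, against 37.3%. In bulk samples like these, fewer cells of a type and less RNA per cell cannot be told apart. The count of 42 called members rested in part on single mice: it was 26 without HFD replicate 3, 27 without HFD replicate 2 and 27 without chow replicate 4. The share of all probes called fell too, from 22.92% to 17.37%, 17.57% and 17.63% in these fits. The median of the members stayed between -0.46 and -0.35 whichever array of these groups was left out. HFD replicates 2, 3 and 6 also had the lowest shares of spots well above background of these groups (56.26%, 56.84% and 56.97%), while HFD replicates 1, 4 and 5 had 60.6%, 61.72% and 59.56% and the chow arrays 59.73% to 61.92%. In a fit chosen after seeing the data, without the arrays under 57% (these 3 and 1 of iPgc1α-/-), 4 members passed the test for diet, against 9.818% of all probes, and the median was -0.21, with 3 HFD mice left. The part of array quality in the lower signals was not tested beyond these values.

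**Figure D1:**
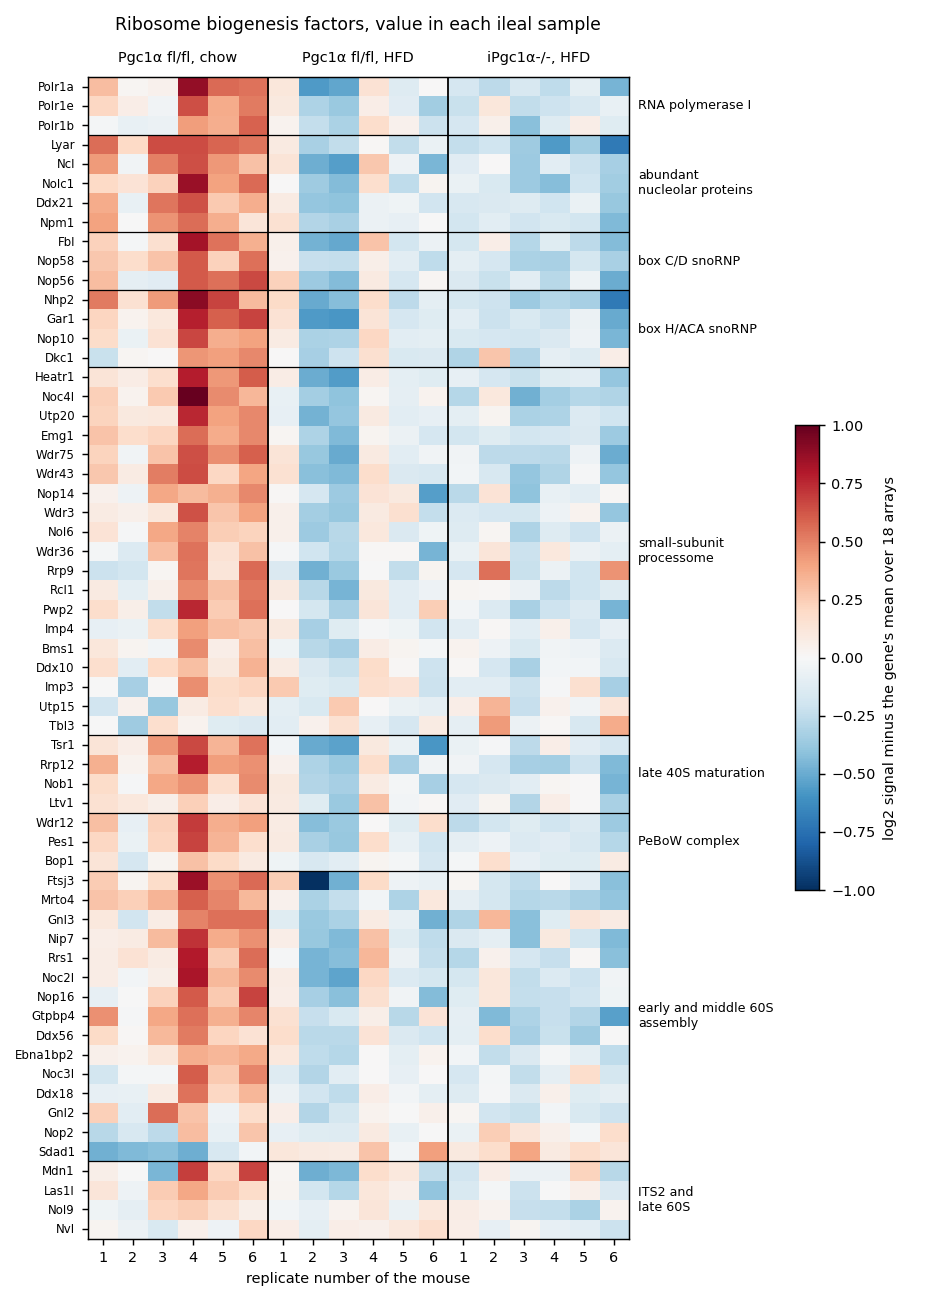
Log2 signal of the 60 members (rows, by role and then by diet fold change) in each of the 18 mice (columns, by group and replicate number), minus the gene's mean over all arrays; values beyond 1 in either direction have the end colour. Most rows are red in the chow columns, most of all in replicate 4, and blue in HFD replicates 2 and 3, while the row of Sdad1 runs the other way.

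Transcription by RNA polymerase I was represented by 3 members, of which Polr1a and Polr1e fell and Polr1b did not pass the test. Polr1a, the catalytic subunit, had a lowest, median and highest signal of 9.01, 9.41 and 9.86 on chow and of 8.42, 8.93 and 9.13 on HFD. Its log2 fold change was -0.55 ± 0.15 (SE, adjusted p = 0.00974, limma), and the groups overlapped because HFD replicates 1 and 4 lay above the lowest chow mice. A dimmer Polr1a probe that passed the filter had a log2 fold change of -0.24 and did not pass the test (adjusted p = 0.165, limma). Polr1b, the second-largest subunit, ran from 8.06 to 8.73 on chow and from 7.82 to 8.31 on HFD, with a log2 fold change of -0.29 ± 0.12 and an adjusted p of 0.098.

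All 5 abundant nucleolar proteins fell. Lyar, a nucleolar protein of proliferating cells, had the largest fold change of all members by their brightest probes. Its signal was between 9.98 and 10.43 on chow (median 10.35) and between 9.46 and 9.87 on HFD (median 9.63), so that no HFD mouse reached a chow mouse (log2 fold change -0.66 ± 0.10, adjusted p = 9.38e-05). Nucleolin (Ncl), which binds the ribosomal RNA precursor, ran from 11.93 to 12.60 on chow (median 12.39) and from 11.42 to 12.23 on HFD (median 11.71), a log2 fold change of -0.57 ± 0.14 (adjusted p = 0.00528). Here HFD replicates 1 and 4 again reached the chow range, which chow replicate 2 extended downwards. Nucleophosmin (Npm1), a chaperone of the granular layer of the nucleolus, fell least in this set by the brightest probes, from a median of 13.38 to 12.92 (log2 fold change -0.42 ± 0.10, adjusted p = 0.00508). Its dimmer probes had log2 fold changes of -0.35 (adjusted p = 0.0635, limma) and -0.70 (adjusted p = 0.0011), so its rank depended on the probe. Nolc1, a chaperone of snoRNPs, fell from a median of 10.40 to 9.96 and the helicase Ddx21 by 0.51 on the log2 scale.

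The box C/D snoRNP proteins, which form the particle that methylates ribosomal RNA, fell together. Fibrillarin (Fbl), the methyltransferase, ran from 12.67 to 13.52 on chow (median 12.98) and from 12.18 to 12.98 on HFD (median 12.57), a log2 fold change of -0.50 ± 0.14 (adjusted p = 0.0157). Nop58, one of the paired core proteins of the particle, lay between 10.51 and 10.94 on chow and between 10.08 and 10.39 on HFD without overlap (log2 fold change -0.48 ± 0.09, adjusted p = 0.000587). Its partner Nop56 spread more within the groups, from 11.56 to 12.33 on chow and from 11.24 to 11.91 on HFD (log2 fold change -0.42 ± 0.14, adjusted p = 0.0369).

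Of the box H/ACA snoRNP, which makes pseudouridine in ribosomal RNA, the 3 small proteins fell, while the enzyme itself did not pass the test. Nhp2 had 12.57, 12.21, 12.48, 12.96, 12.73 and 12.37 in chow replicates 1 to 6, and 12.25, 11.56, 11.63, 12.24, 11.80 and 11.96 in HFD replicates 1 to 6. The groups touched only where HFD replicates 1 and 4 stood just above chow replicate 2, and the log2 fold change was -0.65 ± 0.14 (adjusted p = 0.00171). Gar1 ran from 11.32 to 12.06 on chow (median 11.69) and from 10.71 to 11.43 on HFD (median 11.14), a log2 fold change of -0.59 ± 0.15 (adjusted p = 0.00599). Its dimmer probe had a log2 fold change of -0.32 and did not pass the test (adjusted p = 0.0822, limma). Nop10 fell by 0.37. Dkc1, the pseudouridine synthase dyskerin, had values of 6.16 to 6.87 on chow and 6.06 to 6.55 on HFD, a log2 fold change of -0.30 ± 0.13 with an adjusted p of 0.0968.

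The small-subunit processome is the large particle that forms on the 5′ end of the precursor and releases the 40S precursor. Of its 19 members 12 fell, 0 rose and 7 did not pass the test, with a median log2 fold change of -0.35. Heatr1, a large scaffold protein also needed for polymerase I transcription, lay between 9.89 and 10.60 on chow (median 10.11) and between 9.25 and 9.89 on HFD (median 9.70). Its highest HFD mice came up to the lowest chow mouse without passing it (log2 fold change -0.55 ± 0.13, adjusted p = 0.00417). Utp20 and the methyltransferase Emg1 fell by 0.52 and 0.50 and were separated between the diets as well. Noc4l, a nucleolar partner of Nop14, ran from 9.52 to 10.58 on chow and from 9.09 to 9.52 on HFD (log2 fold change -0.55 ± 0.14, adjusted p = 0.00771), with chow replicate 4 far above the rest. The WD-repeat proteins Wdr75, Wdr43, Wdr3 and Wdr36 fell too, the first of them from a median of 9.77 to 9.32. At the other end, Utp15, whose protein sits at the base of the particle, had a median of 5.36 on chow and 5.22 on HFD with a log2 fold change of 0.01 ± 0.11 (adjusted p = 0.978), and it was also the member with the fewest arrays above background. Rrp9, the U3 snoRNA protein, had a log2 fold change of -0.35 ± 0.16 and an adjusted p of 0.127.

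Late maturation of the 40S subunit had 4 members, of which 3 fell. Tsr1, a GTPase-like protein that blocks early entry of the subunit into translation, had a lowest, median and highest signal of 7.80, 8.12 and 8.40 on chow and of 7.15, 7.45 and 7.84 on HFD (log2 fold change -0.63 ± 0.13, adjusted p = 0.00105). Only HFD replicate 4 reached into the chow range. Rrp12, an export factor, fell by 0.53 (adjusted p = 0.00249) and the nuclease Nob1 by 0.41. Ltv1, a late assembly factor, had a median of 10.15 on chow and 10.02 on HFD (log2 fold change -0.15 ± 0.10, adjusted p = 0.292).

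**Figure D2:**
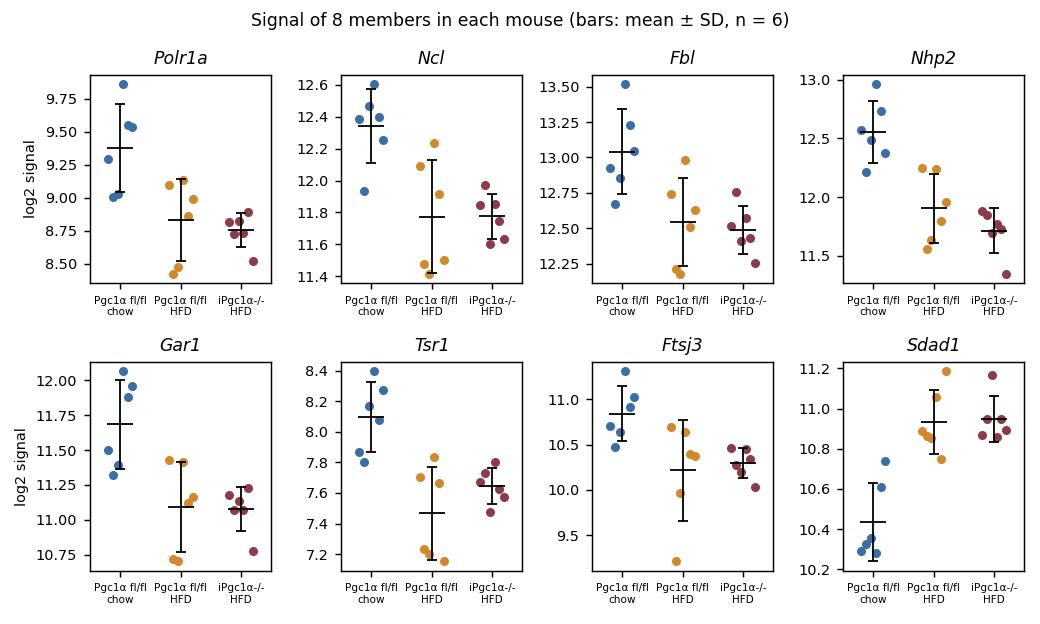
Log2 signal of 8 members in each mouse, by group (points: mice; bars: mean ± SD, n = 6; the y axes differ and do not start at 0). In the 7 members other than Sdad1 the HFD means lie below the chow mean, with Pgc1α fl/fl HFD replicates 1 and 4 among the highest of their group, and in Sdad1 both HFD groups lie above chow.

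The large-subunit factors divided in the same way. In the PeBoW complex, which is needed to cut the precursor between the large ribosomal RNAs, Wdr12 fell from a median of 9.11 to 8.72 (log2 fold change -0.43 ± 0.12, adjusted p = 0.0117) and Pes1 by 0.38. Their partner Bop1 had a narrow range, 10.95 to 11.41 on chow and 10.95 to 11.14 on HFD, and a log2 fold change of -0.17 ± 0.08 with an adjusted p of 0.123. Of the 15 early and middle 60S assembly factors 10 fell and 1 rose, with a median of -0.43. Ftsj3, a methyltransferase of the 60S pathway, ran from 10.48 to 11.31 on chow and from 9.22 to 10.70 on HFD (log2 fold change -0.63 ± 0.19, adjusted p = 0.0245). HFD replicates 2 and 3 were lowest and replicates 1 and 4 reached the chow range, and its standard error was the largest among the members. Mrto4, a stand-in for the stalk protein P0, separated the diets, with 9.72 to 10.09 on chow and 9.17 to 9.60 on HFD (log2 fold change -0.50 ± 0.09, adjusted p = 0.000398). The GTPase Gtpbp4 fell from a median of 7.65 to 7.18 (log2 fold change -0.43 ± 0.11, adjusted p = 0.00598). Nop2, an RNA methyltransferase, had 11.14 on chow and 11.17 on HFD as medians (log2 fold change -0.02 ± 0.10, adjusted p = 0.892).

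Sdad1, a 60S assembly protein of the nucleolus, was the exception. It had 10.29, 10.33, 10.36, 10.28, 10.61 and 10.74 in chow replicates 1 to 6, and 10.89, 10.86, 10.85, 11.06, 10.75 and 11.19 in HFD replicates 1 to 6. Every HFD mouse was above every chow mouse, though HFD replicate 5 passed chow replicate 6 only narrowly, and the log2 fold change was 0.50 ± 0.09 (adjusted p = 0.000687). Its probes did not run together, however. The brightest probe lies at chr5:92713133-92713192 on mm9 and the next, at chr5:92718788-92718847, also rose by 0.50, but the dimmest, at chr5:92730661-92730720, had a log2 fold change of -0.31 (adjusted p = 0.118). The files tie the first 2 probes to the same transcript record and the dimmest to another one, and which exons they report was not determined.

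Factors of ITS2 processing and late 60S remodelling moved least, with a median of -0.19. Las1l, the nuclease that cuts the internal spacer ITS2, fell by 0.30, while its partner Nol9 and both AAA ATPases of the set did not pass the test. Mdn1, the giant ATPase that pulls factors off the 60S precursor, had the widest spread on chow, from 7.87 to 9.02, against 7.84 to 8.50 on HFD (log2 fold change -0.34 ± 0.17, adjusted p = 0.149). Nvl, the other ATPase, had medians of 7.76 and 7.84 (log2 fold change 0.06 ± 0.07, adjusted p = 0.605).

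**Figure D3:**
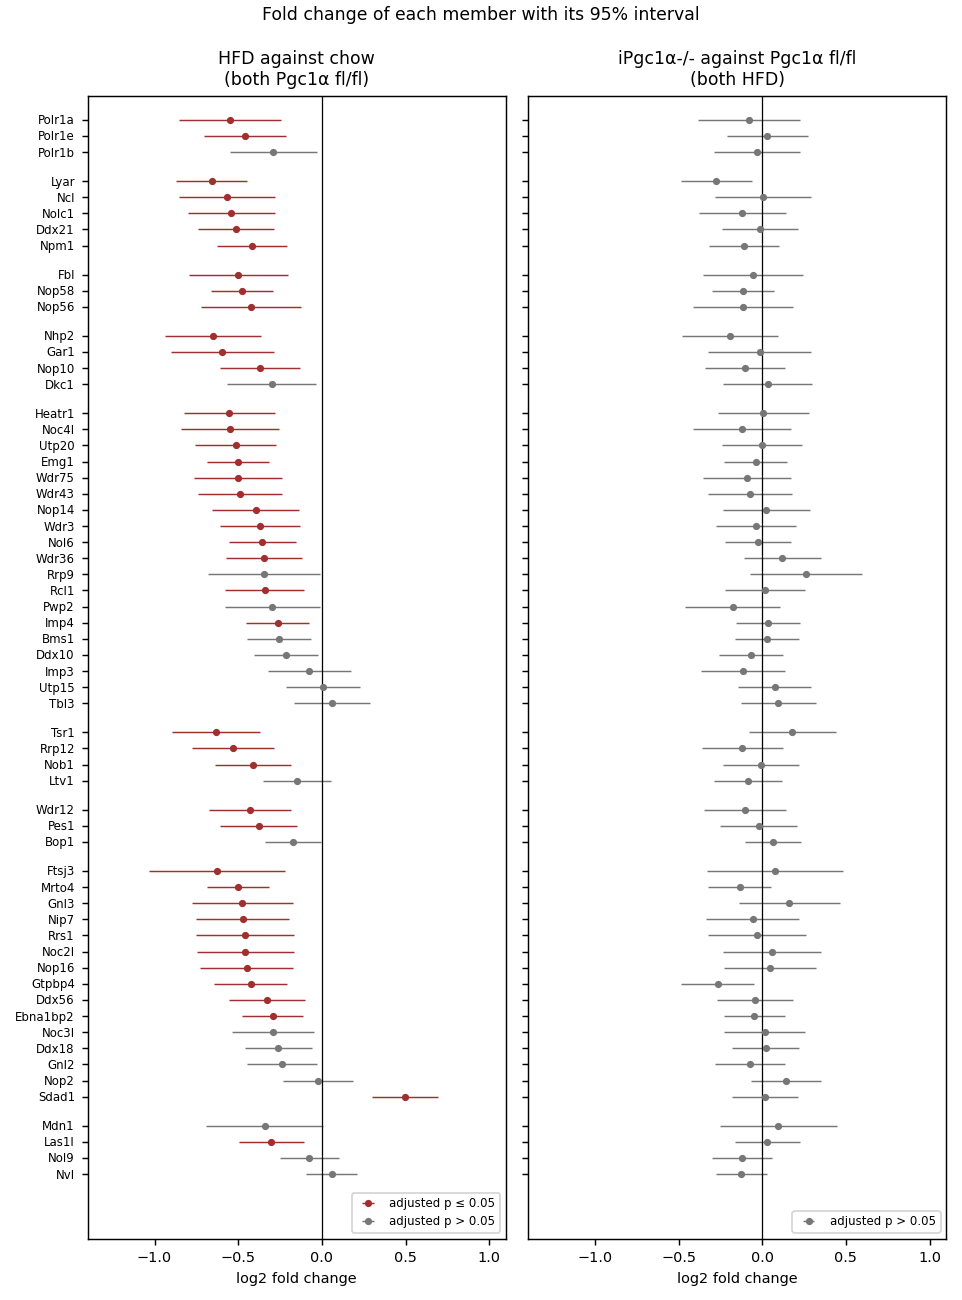
Log2 fold change of each member (rows, in the order of the heat map) with its 95% interval, for HFD against chow in Pgc1α fl/fl mice (left) and for iPgc1α-/- against Pgc1α fl/fl mice on HFD (right); red points have an adjusted p of 0.05 or lower. On the left 41 red points lie below 0 and 1 above it, and on the right no point is red and all lie between -0.27 and 0.26.

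The direction rarely depended on the choice of probe. Further probes that passed the filter existed for 38 of the 60 genes: in 34 all probes were lower on HFD, in 1 all were higher and in 3 (Nvl, Pes1 and Sdad1) they differed in sign. Of the 59 further probes 55 were lower on HFD, 25 of them past the threshold, and 1 was higher past it. The 3 probes of Ftsj3 had log2 fold changes of -0.63, -0.47 and -0.39, and those of Tsr1 -0.63, -0.38 and -0.27, the brightest having the largest in each.

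The members also rose and fell together from mouse to mouse within a group. After each group's mean was taken away, the mean Pearson correlation over the 1770 pairs of members was 0.57 across the 18 arrays, and 96.4% of the pairs were positive. The mean over all pairs of tested genes was 0.0014, but normalization to nearly the same distribution on every array holds that mean near 0. It is therefore no baseline for a list of related genes, and no other list was measured. The pairs of members share their arrays and normalization, so the members are not independent of each other. Heatr1 followed the mean of the others most closely (r = 0.95), and Tbl3 (r = -0.01), Sdad1 (r = 0.20) and Utp15 (r = 0.20) least. The mean of the 60 members, centred on all arrays, was 0.13, -0.02, 0.16, 0.55, 0.30 and 0.39 in chow replicates 1 to 6 and 0.05, -0.32, -0.31, 0.11, -0.08 and -0.12 in HFD replicates 1 to 6. It was highest in chow replicate 4 and lowest in HFD replicates 2 and 3, and the groups overlapped at chow replicate 2 and HFD replicates 1 and 4. On each of the 3 slides, with 2 mice per group, the median of the members was lower on HFD, by -0.37, -0.52 and -0.31 on the log2 scale, with 54, 58 and 56 of the 60 members lower.

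Markers of other cells moved with the diet beside the members. All 15 markers of dividing cells had a lower mean on HFD and 10 fell, among them Rrm2, a subunit of ribonucleotide reductase, by 0.83 and Mki67 by 0.53. Their mean level, centred on all arrays, was between 0.06 and 0.87 on chow, between -0.50 and 0.19 in Pgc1α fl/fl mice on HFD and between -0.34 and 0.05 in iPgc1α-/- mice on HFD (diet difference -0.50, two-sided exact permutation p = 0.0173, 0.0900 after adjustment over 26 tests of 13 lists). As for the members, chow replicate 4 was the highest array and HFD replicates 2 and 3 were the lowest. When that mean entered the model as a covariate, a fit chosen after seeing the data, the median diet log2 fold change of the members was -0.089. In that fit 3 members passed the test, against 8.742% of all probes, while 22.92% of all probes passed without the covariate. Of the 8 T cell markers measured, 7 fell and Cd4 rose, with a mean of 0.02 to 1.37 on chow and of -0.75 to -0.14 on HFD (difference -1.33, exact permutation p = 0.00216, the smallest that 924 divisions allow, 0.0281 adjusted). With the T cell mean as a covariate, the median of the members was -0.62, and 0 of them passed limma's test against 41 at an unadjusted p below 0.05, where 1.317% of all probes passed and 11.8% had such an unadjusted p. Because the T cell mean did not overlap between the diets, that fit cannot tell its part from that of the diet. The 7 goblet cell markers all fell, as did 5 of 6 B cell and all 4 plasma cell markers measured. Of the 13 villus enterocyte markers 4 rose, among them Alpi and Apoa4, and 2 fell, and of the 8 crypt stem cell markers 3 fell while Lgr5 and Olfm4 did not pass the test. The part of these cells in the lower member signals was not tested beyond those values.

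**Figure D4:**
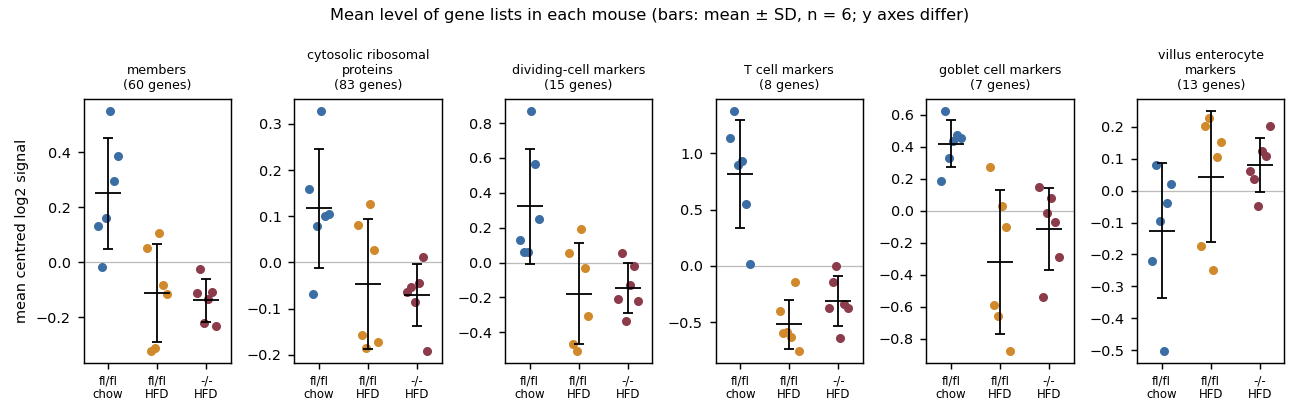
Mean log2 signal of 6 gene lists in each mouse, each gene centred on its mean over all arrays (points: mice, in replicate order from left to right; bars: mean ± SD, n = 6; the y axes differ). Members, ribosomal proteins and dividing-cell markers share their highest mouse, chow replicate 4, whereas the T cell markers separate the diets fully.

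Other genes of the pathway were lower on HFD as well. In 4 lists of further assembly factors 41 of 101 genes tested fell, 0 rose and the median was -0.22 on the log2 scale. Among further large-subunit factors, 19 of 35 fell, led by Ppan (-0.58), Rrp1b (-0.55) and Tma16 (-0.52). Among further small-subunit factors 13 of 35 fell, with Utp14a (-0.48), the dimethyltransferase Dimt1 (-0.47) and the acetyltransferase Nat10 (-0.46) foremost. Of the further RNA polymerase I genes 3 of 12 fell: Tcof1, the treacle protein of the nucleolus, by 0.68, the initiation factor Taf1b by 0.47 and the polymerase subunit gene Cd3eap by 0.40. In the list of exosome and snoRNP assembly genes 6 of 19 fell, with the exosome genes Exosc8 (-0.67), Dis3 (-0.53) and Exosc1 (-0.52) first.

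The ribosomal proteins themselves differed far less in size. Of 83 cytosolic ribosomal protein genes tested 82 had a lower mean on HFD, but 8 fell past the threshold (9.64%) and 0 rose. Of all genes, 14.3% fell and 10.3% rose. The median of the ribosomal proteins was -0.16, and the largest changes were those of Rps2 (-0.40), Rpl12 (-0.36) and Rpl3 (-0.33). Their mean log2 signal was high, between 14.9 and 15.4 per array, and its part in the small fold changes was not tested. Many of these genes have near-identical pseudogene copies, which a short probe may not tell apart. Of 14 growth regulators, Myc fell by 0.79 ± 0.21 on the log2 scale (adjusted p = 0.00877), from a mean of 8.43 on chow to 7.65 on HFD. Mlx, a partner of glucose-responsive factors, rose by 0.30 (adjusted p = 0.00806), as did Rptor, the raptor subunit of mTORC1, by 0.21, and the kinase Rps6kb1 had a log2 fold change of -0.24 (adjusted p = 0.147).

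**Figure D5:**
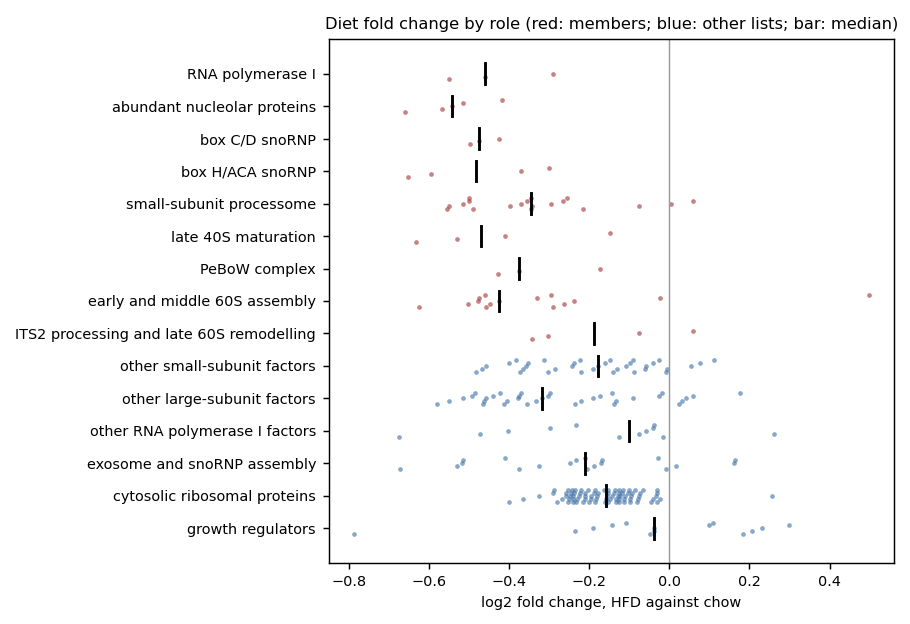
Diet log2 fold change (HFD against chow, Pgc1α fl/fl mice) of each gene by role of the members (red) and in the 6 lists of other pathway genes (blue), with a bar at each list's median. The medians of the roles lie between -0.54 and -0.19, and those of the other lists between -0.32 and -0.04.

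To ask whether Pgc1α in the epithelium bears on these genes under HFD, the arrays labelled iPgc1α-/- were compared with Pgc1α fl/fl mice on the same diet. No member passed limma's test (0 of 60, against 0.214% of all genes tested), and adjusted p-values ran from 0.423 to 0.999. At an unadjusted p below 0.05 there were 2, Lyar and Gtpbp4, against 9.32% of all genes, and 4 by the two-sided exact permutation test (Lyar, Gtpbp4, Nvl and Nop2), against 9.67%. The median log2 fold change was -0.028, with 36 members lower and 24 higher, against a median of 0.0072 over all genes. Without the 4 arrays under 57% of spots well above background it was -0.22, and still 0 members passed, with 10 at an unadjusted p below 0.05 against 13% of all probes. For 59 of the 60 members the 95% interval of the log2 fold change lay within a 1.5-fold change either way, the exception being Rrp9 with -0.07 to 0.60. Of all 21535 genes tested 19517 had such an interval too. Lyar had the lowest value, with 9.07 to 9.58 in iPgc1α-/- mice (median 9.43) against 9.46 to 9.87 in Pgc1α fl/fl mice on HFD (log2 fold change -0.27 ± 0.10, adjusted p = 0.423). Gtpbp4 followed, with 6.68 to 7.13 against 6.95 to 7.37 (log2 fold change -0.27 ± 0.11, adjusted p = 0.447). In both genes the groups overlapped. Within slides the median of the members had no common sign, at 0.12, -0.05 and -0.15 with 6, 40 and 57 of the 60 members lower, where 2 mice stood against 2. The dividing-cell markers differed by 0.03 between the genotypes (exact permutation p = 0.803), and no cell type list passed its test there.

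Set against Pgc1α fl/fl mice on chow, iPgc1α-/- mice on HFD had a picture close to that of the diet alone. This contrast uses the same arrays as the other comparisons and is given beside them only. In it 42 members fell and 1 rose, against 19.9% and 16.9% of all genes, with a median of -0.40, and 11 fell by more than 1.5-fold, against 6.85% of all genes. Lyar fell by 0.93 ± 0.10 (adjusted p = 1.61e-06) and Nhp2, with values of 11.35 to 11.88 in iPgc1α-/- mice, by 0.84 ± 0.14 (adjusted p = 0.000111). The others past 1.5-fold were Gtpbp4 (-0.69), Noc4l (-0.67), Nolc1 (-0.66), Rrp12 (-0.65), Mrto4 (-0.64), Polr1a (-0.63), Gar1 (-0.61), Wdr75 (-0.59) and Nop58 (-0.59). Tsr1 and Ftsj3, past 1.5-fold between the diets in Pgc1α fl/fl mice, had -0.45 and -0.55 here, and Sdad1 rose by 0.51. In 55 of the 60 members the chow group had the highest of the 3 means. In 35 the means stepped down from chow over HFD to HFD with iPgc1α-/-, and in 20 the iPgc1α-/- mean lay above that of Pgc1α fl/fl mice on HFD. No member passed the test between the 2 HFD groups, and these orders were not counted over all genes. The spread between mice was smaller in iPgc1α-/- mice: the SD of the members' mean was 0.078, against 0.18 in Pgc1α fl/fl mice on HFD and 0.20 on chow, a difference that was not tested.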

How the data were processed

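The authors scanned the arrays and deposited, per the file headers, the spot intensity values of Agilent Feature Extraction 10.10.1.1 (median and mean signal, local background, background-subtracted signal and flags), without normalization between arrays, and a table of log2 values for 33095 probes. Their methods list a log2 step, qsmooth, limma and a batch correction (washing bath, labelling serial). The batches are not in the labels, so that correction was not repeated.

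From the intensity files, control and outlier spots were dropped and replicate spots of a probe averaged (56605 probes from 62976 spots). A probe was kept if 5 or more of the 6 arrays of any group had it well above background (32726 probes). Log2 median signals went through a reimplemented qsmooth (window 0.05) and were fitted with limma 3.58.1 (R 4.3.3) as a joint model of the 3 groups. P-values were adjusted by Benjamini-Hochberg over all 32726 probes at a threshold of 0.05. The script was tested on simulated arrays. Single values were compared with exact permutation tests.

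Group and replicate came from the labels, slide from the array identifiers. The members and gene lists were chosen with earlier results of these data known. Named were, by rule, the members with the largest and smallest diet change of each role, those called past 1.5-fold or for genotype and 7 core factors, and the 3 largest changes of each other list. Sdad1 and other genes were added after their values were seen. Alternatives were other signals, background corrections, normalizations, filters, blocks, variance models, weights, thresholds, probe means, the deposited log2 table, each array left out and, chosen after seeing the data, marker covariates and the omission of arrays with few spots above background. Coordinates of probes are on mm9, as in the files.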

Additional observations from a re-analysis of the deposited data

Results flagged for a closer look

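Within a group of 6 mice, 6 of 84 sets of values (28 genes or means in 3 groups) had 1 sample whose gap to its nearest neighbour took up an unusually large share of the group's range, where chance gives about 1 in 20. In iPgc1α-/- mice, replicate 6 was lowest for Gar1 (10.78 against 11.07 for the next, a gap of 0.648 of the range), for Nhp2 (11.35 against 11.70, 0.657) and for Npm1 (12.56 against 12.80, 0.75). In the same group, replicate 2 was highest for Noc4l (9.59 against 9.20, 0.661). In Pgc1α fl/fl mice on chow, replicate 2 was lowest for Lyar (9.98 against 10.32, 0.748) and for Gtpbp4 (7.21 against 7.58, 0.653).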

How the results depend on the processing

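The diet difference kept its direction in the median of the members under every setting tried, while its count of calls depended on the setting. The count was 42 in the reported fit. It was between 31 and 47 under the other signals, background corrections, normalizations, filters, blocks, variance models and weights. Where it was counted, the share of all probes called in these fits ran from 12.51% without a filter to 25.53% with the replicate block. In the deposited log2 table the count was 41, and whether that table carries the authors' batch correction was not determined. At an adjusted p of 0.01 the count was 22, and the share of all probes at that threshold was not counted. With the added fold of 1.5 it was 5 for diet and 11 for iPgc1α-/- on HFD against chow. Of all genes, 5.22% and 6.85% fell by that much. Chosen after seeing the data, the dividing-cell covariate gave 3 calls and a median of -0.089 for diet, and 10 and -0.132 for iPgc1α-/- on HFD against chow. The T cell covariate gave 0 calls (41 at an unadjusted p below 0.05, limma, against 11.8% of all probes) and -0.621, and 10 and -0.603. Over all probes the share called for diet was 22.92% without a covariate, 8.742% with the dividing-cell and 1.317% with the T cell mean. For iPgc1α-/- on HFD against chow these shares were 35.25%, 18.48% and 4.752%. Also chosen after seeing the data, leaving out the 4 arrays under 57% of spots well above background gave 4 diet calls and a median of -0.212. It gave a genotype median of -0.215 with 0 calls, and 43 calls with -0.403 for iPgc1α-/- on HFD against chow. The shares of all probes called were then 9.818% for diet and 36.2% for iPgc1α-/- on HFD against chow. In that fit Nop2 was at 0.0228, Ltv1 at 0.0135 and Utp15 at -0.0071 for diet. With each array left out in turn, diet calls were between 26 and 48 and the median between -0.460 and -0.348, and for iPgc1α-/- on HFD against chow 36 to 48 and -0.458 to -0.345. The shares of all probes called were then 17.37% to 25.02% for diet and 29.5% to 35.61% for iPgc1α-/- on HFD against chow. By genotype 0 members passed under any setting, with a median between -0.086 and 0.042 when arrays were left out. Members that turned in sign had not passed the test: Nop2 was at 0.0899 with the processed signal, 0.0641 with 75th percentile scaling of the median signal and 0.161 with the dividing-cell covariate, under which Mdn1 was at 0.121, Polr1b at 0.0467, Dkc1 at 0.0173 and Ltv1 at 0.0619. Utp15 was at -0.127 with the processed signal, -0.0439 with array weights and -0.204 with the T cell covariate, where Nvl was at -0.0609. With arrays left out Utp15 ran from -0.0724 to 0.0524 and Nop2 from -0.0832 to 0.0446. The cause of these changes was not tested. Replicate numbers were not taken to pair the mice, since not every pair's deviations correlated above 0.1: they ran from -0.131 to 0.283 for diet, from -0.189 to 0.332 for genotype and from -0.217 to 0.346 for both together. With the replicate block the calls were 44, 0 and 47 for diet, genotype and both together, with medians of -0.403, -0.028 and -0.405. Of all probes 25.53%, 0.165% and 37.62% passed in that fit, against 22.92%, 0.1895% and 35.25% without the block. Precision is limited by 6 mice per group and, for Utp15, by a signal near background.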

Other observations

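Of the cell type markers not described above, 2 of 6 Paneth cell, 1 of 7 enteroendocrine, 1 of 4 tuft, 2 of 5 macrophage and dendritic, 0 of 5 stromal and 0 of 1 erythroid markers measured fell on HFD in Pgc1α fl/fl mice, and 0 of them rose (limma, adjusted p of 0.05 or lower). At an unadjusted p below 0.05, 0 stromal and 0 erythroid markers differed.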
